A study of Mus musculus with 14 samples.

Results

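Nphs1, Podxl, Synpo, Tcf21 and Foxd1 were taken as genes known from podocytes and from the renal stroma, the supporting connective tissue of the kidney. They were selected by gene symbol, and all 5 were found among the 16181 protein-coding genes of the deposited table of library-scaled read counts (CPM, reads of a gene divided by the library's total and multiplied by 1000000). RNA was sequenced from mouse embryonic stem cells (ESCs) and from embryoid bodies (EBs), aggregates in which ESCs differentiate after the pluripotency factors LIF and 2i are withdrawn. The study asked how loss of DIS3L2, an exonuclease that degrades uridylated RNAs and is mutated in a syndrome with kidney tumours, alters this differentiation. Both lines derive from ESCs carrying a GFP reporter of Osr1, a gene of the early kidney lineage. The shDIS3L2 line stably expressed a short hairpin RNA against Dis3l2, and the shLacZ control line expressed a hairpin against the bacterial gene LacZ. Each line was sampled undifferentiated in LIF and 2i (d0) and as EBs in serum every other day from d2 to d12, which gave 14 libraries, 1 for each line on each day. The EBs are mixed cultures and not kidney tissue, and the reporter and a hairpin were present in every library.

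Podocytes are the epithelial cells that wrap the capillaries of the glomerulus, and their foot processes are joined by the slit diaphragm, the last layer of the filtration barrier. Nephrin (Nphs1) is the adhesion protein that spans the slit, podocalyxin (Podxl) is a charged sialomucin of the free cell surface, and synaptopodin (Synpo) binds actin in the foot processes. TCF21 is a basic helix-loop-helix transcription factor of podocytes and of mesenchyme around several organs, while FOXD1 is a forkhead factor that marks the progenitors of the renal stroma. None of these genes is restricted to the kidney. Podxl is also made by early embryonic epithelia and endothelium, Synpo by neurons, Tcf21 by epicardium and Foxd1 by the ventral forebrain and retina.

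Between 7178712 reads (shLacZ d4) and 39888099 reads (shLacZ d0) were counted on genes per library. A count of 3 was taken as the floor and corresponds to between 0.0752 and 0.418 CPM. CPM was calculated over all counted genes, and intervals are 95% Poisson or Clopper-Pearson intervals that cover counting error only. With 1 library per line and day, a gene was called different on a day when the ratio was at least 3-fold and the CPM reached 1 in 1 of the compared libraries. No p-value belongs to that criterion. Dis3l2 itself stood at 13.7% of the shLacZ level at d0 (3.93 against 28.7 CPM), 28.1% at d2, 32.1% at d4 and 55.2% at d6, but at 97.1% at d8 and 75.4% at d12. Its difference over d6 to d12 was -0.35 on the log2 scale (SE 0.16, edgeR adjusted p = 0.126). In bulk RNA, fewer cells of a type and less RNA per cell cannot be told apart.

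The 5 genes did not move as a group. Per kilobase of counted length, Podxl was the highest of the 5 in every library except that of shLacZ ESCs, where Nphs1 stood at 3.70 and Podxl at 2.69 CPM per kb. In shDIS3L2 ESCs the intervals of Podxl (1.93 CPM per kb) and Nphs1 (1.77) overlapped. At d12 the order in shLacZ was Podxl (169 CPM per kb), Synpo (1.24), Tcf21 (1.01), Nphs1 (0.704) and Foxd1 (0.604), and the intervals of each neighbouring pair after Podxl overlapped. In shDIS3L2 at d12 the order was Podxl (75.9 CPM per kb), Tcf21 (6.10), Synpo (3.78), Nphs1 (0.665) and Foxd1 (0.190), and no neighbouring intervals overlapped. Tcf21 was thus above Synpo at d12 in shDIS3L2, whereas at d8 and d10 in that line Synpo was above Tcf21, at 2.97 against 1.17 and 4.47 against 3.17 CPM per kb. The plot of levels by day shows that Nphs1 was highest at d0 and d2, while Podxl, Synpo and Tcf21 peaked at d6 or later. Foxd1 stayed near the floor.

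**Figure D1:**
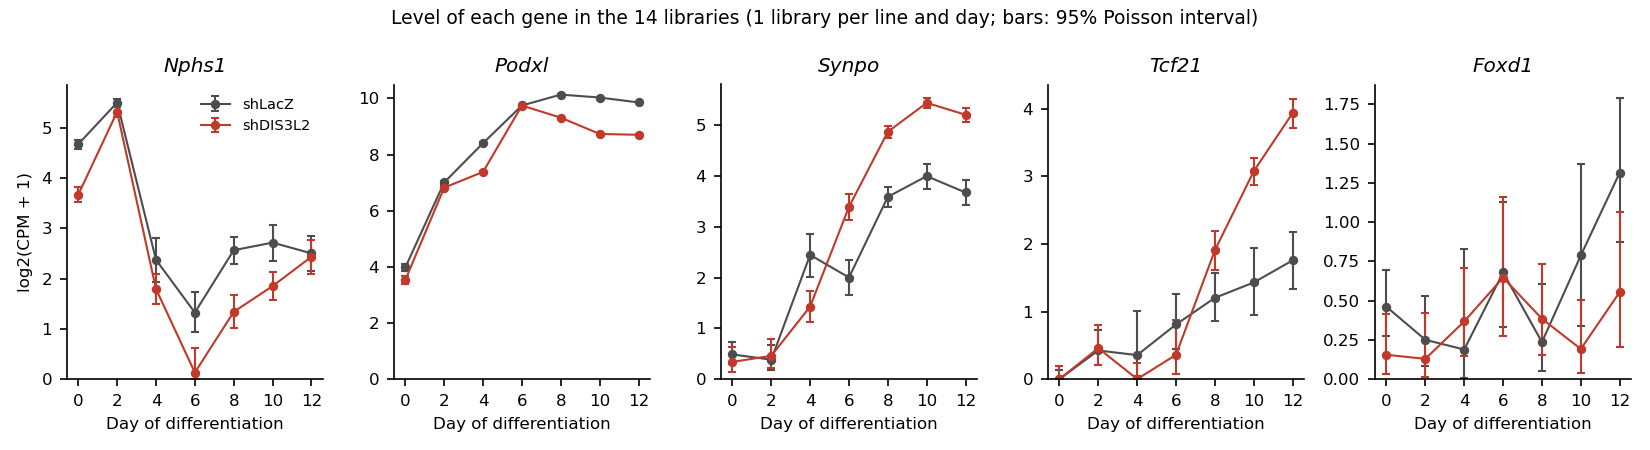
Level of each gene, as log2(CPM + 1), against day of differentiation for the shLacZ (grey) and shDIS3L2 (red) lines, with 1 library per point and 95% Poisson intervals as bars. Nphs1 peaks at d2 in both lines at 44.3 and 38.9 CPM, Podxl reaches 1127 CPM in shLacZ, and shDIS3L2 lies above shLacZ from d6 on for Synpo and from d8 on for Tcf21. Each panel has its own vertical axis.

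On single days, the criterion between the lines was met by 2 of 3 genes compared at d6 and 1 of 4 at d8. It was met by 1 of 4 at d10 and 3 of 5 at d12. None was called at d0, d2 or d4, when 2, 2 and 3 of them reached 1 CPM and the criterion was met upwards by 0.6%, 0.114% and 0.361% and downwards by 2.36%, 0.144% and 1.69% of the protein-coding genes compared. At d6, Synpo was higher and Nphs1 lower in shDIS3L2 (background 2.73% higher and 4.27% lower). At d8 only Nphs1 was called, as lower (background 5.5% higher and 3.77% lower), and at d10 only Tcf21, as higher (background 8.62% higher and 3.17% lower). At d12, Synpo and Tcf21 were higher and Foxd1 was lower (background 8.17% higher and 1.42% lower).

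The difference between the lines over d6 to d12 was tested with edgeR's quasi-likelihood test with day as a block and Benjamini-Hochberg adjustment over 17164 genes. The 4 days of 1 series stand in for replicates there, so the p-values measure the spread of the line difference between days and not between cultures. Of the 4 genes that passed the filter on low counts, Synpo and Tcf21 were called higher and Podxl lower in shDIS3L2, while Nphs1 missed the threshold. Across all genes, 19.6% were called higher and 18.7% lower, so that a call in this comparison is frequent. Over all 7 days, where 1.91% of 20050 genes were called higher and 3.82% lower, only Podxl was called, as lower.

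**Figure D2:**
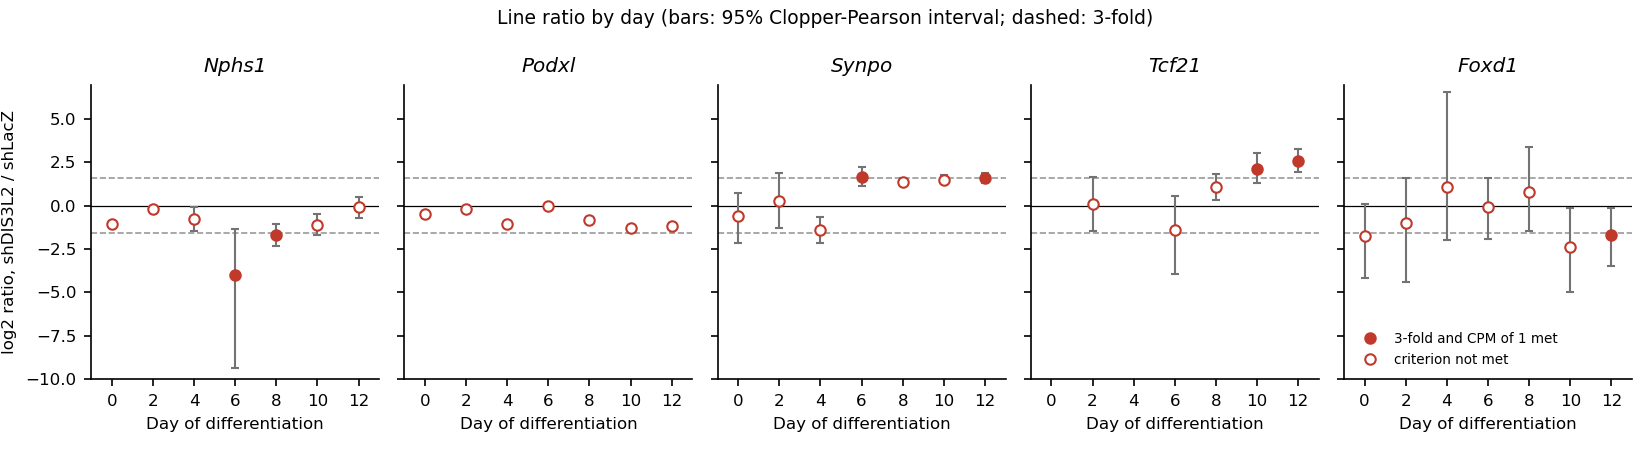
Ratio of shDIS3L2 to shLacZ for each gene and day on a log2 scale, with 95% Clopper-Pearson intervals as bars and dashed lines at 3-fold. Filled points meet the 3-fold criterion with a CPM of at least 1, and days with no ratio (Tcf21 at d0 and d4) have at most 3 reads in each library. With CPM Podxl lies at or below 0 on all 7 days (0.01 at d6 with DESeq2 size factors) and never reaches the dashed line, and Synpo lies above 0 on the 4 days from d6.

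Nphs1, which encodes the core protein of the slit diaphragm, was a gene of the undifferentiated and d2 cultures here. Nphs1 (ENSMUSG00000006649) lies on the plus strand of GRCm38 at chr7:30458315-30487223. In shLacZ its level was 24.5 CPM at d0 and 44.3 at d2, then 4.18 at d4 and 1.5 at d6, and finally 4.91, 5.57 and 4.66 on d8, d10 and d12. In shDIS3L2 it was 11.7 CPM at d0 and 38.9 at d2, then 2.46 at d4 and 0.0942 at d6, and finally 1.53, 2.60 and 4.40 on d8, d10 and d12. In each line the 2 highest libraries were thus those of d0 and d2, and the lowest was that of d6, where shDIS3L2 held a single read against 20 in shLacZ.

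From d0 to d2 its ratio was 1.81 in shLacZ (interval 1.66 to 1.97) and 3.32 in shDIS3L2 (interval 2.91 to 3.80), in a step in which the median log2 ratio of all genes was itself 0.50 and 0.78. Between d2 and d4, Nphs1 fell 10.6-fold in shLacZ (interval 7.38 to 15.8) and 15.8-fold in shDIS3L2 (interval 11.9 to 21.4). A fall of at least 3-fold in this step was seen for 6.33% and 8.8% of protein-coding genes. From d6 to d8, Nphs1 rose again, 3.27-fold in shLacZ (interval 1.99 to 5.62, background 3.43%) and from 1 to 30 reads in shDIS3L2 (ratio 16.2, interval 2.69 to 661, background 6.55%). The late level stayed below that of ESCs in both lines, at 0.190 of it in shLacZ and 0.376 in shDIS3L2 at d12.

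Nphs1 was lower in shDIS3L2 than in shLacZ on 7 of 7 days. The ratio was 0.478 at d0 (interval 0.419 to 0.543), 0.878 at d2 and 0.590 at d4. It was 0.0627 at d6 (interval 0.00151 to 0.392), 0.311 at d8 (interval 0.198 to 0.477), 0.468 at d10 and 0.944 at d12 (interval 0.617 to 1.45). The interval lay below 1 on 6 of the 7 days, and at d12 the lines were not distinguishable at 47 reads each. At d0, the median log2 ratio of all genes compared was itself -0.32, and with TMM scaling the log2 ratio of Nphs1 at d0 was -0.87 instead of -1.07. Over d6 to d12 the edgeR difference was -1.20 on the log2 scale (SE 0.41, adjusted p = 0.0554), and over all 7 days it was -0.91 (SE 0.28, adjusted p = 0.0782). With DESeq2 the adjusted p was 0.0248 over d6 to d12 and 0.00971 over all 7 days, so whether Nphs1 passed depended on the tool. Pluripotency markers, 8 genes among them Pou5f1 and Nanog, also differed between the lines, with summed levels in shDIS3L2 at 0.748 of shLacZ at d0, 1.04 at d2 and 1.30 at d4, and at 0.149, 0.222, 0.385 and 0.741 on d6, d8, d10 and d12. All 8 were lower at d0, d6, d8 and d10, and their part in the level of Nphs1 was not tested.

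Wt1, the zinc-finger factor of podocytes and their progenitors, peaked at d2 as Nphs1 did (27.1 CPM in shLacZ and 28.9 in shDIS3L2), but it had 1 read and no read at d0. Collagen genes Col4a3 and Col4a4 of the mature glomerular basement membrane were too low to be tested over d6 to d12. The gene names here stand for RNAs in mixed cultures, not for podocytes.

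The gene whose profile was most like that of Nphs1 among 15350 protein-coding genes was its neighbour Kirrel2. Kirrel2 encodes a nephrin relative of the same immunoglobulin superfamily that is also placed at the slit diaphragm. The Pearson correlation of log2(CPM + 1) over the 14 libraries was 0.97 and Spearman's rho 0.956, which are descriptions, since the libraries are time series of 2 lines. Kirrel2 (chr7:30447534-30457690, minus strand) and Nphs1 are transcribed away from each other, and 624 bases separate their annotated starts. Sequence on the side of Kirrel2 that faces Nphs1 is shown because the pair shares this stretch of chromosome. It begins in the space between the Ensembl starts and runs into the Ensembl gene model of Kirrel2. The bases are those from 250 to 51 before the RefSeq start of Kirrel2 (GRCm38.p6, chr7:30457566-30457765, minus strand), with capitals marking matches to GNGGGNGNG on either strand, a G-rich motif of the kind bound by WT1.

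Kirrel2: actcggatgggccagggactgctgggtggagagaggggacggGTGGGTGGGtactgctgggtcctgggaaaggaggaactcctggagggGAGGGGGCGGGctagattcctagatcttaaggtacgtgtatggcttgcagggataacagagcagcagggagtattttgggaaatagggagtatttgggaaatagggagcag

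The motif matched 3 times in 2 runs, 2 of the matches overlapping, and the window held 57.0% G and C. At least 1 match was present in 31.3% of 32851 RefSeq promoter windows of the same 200 bases, so a match is common and describes letters only. The motif CANNTG, the E-box read by basic helix-loop-helix factors, was not matched in this window and is present in 59.0% of the windows. RefSeq windows were also found for Nphs1, Tcf21 and Foxd1, and none for Podxl or Synpo.

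Kirrel2 followed the course of Nphs1 through both series, at a lower CPM except at d6 in shDIS3L2, where each had 1 read. Per kilobase of counted length, Kirrel2 was not always lower, at 1.87 against 1.77 CPM per kb for Nphs1 at d0 in shDIS3L2. In shLacZ it stood at 14.3 CPM at d0 and 18.5 at d2, then at 2.51 and 0.601 on d4 and d6, and finally at 2.78, 1.57 and 1.49 on d8, d10 and d12. In shDIS3L2 it stood at 7.36 CPM at d0 and 15.1 at d2, then at 1.26 and 0.0942 on d4 and d6, and finally at 0.204, 1.09 and 1.31 on d8, d10 and d12. Like Nphs1 it was lower in shDIS3L2 on 7 of 7 days, and it met the criterion at d8 alone, at 0.0732 of the shLacZ level (interval 0.0192 to 0.200). Its edgeR difference over d6 to d12 was -1.46 (SE 0.62, adjusted p = 0.103), past the threshold neither there nor over all 7 days (adjusted p = 0.126).

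The other genes most like Nphs1 were Pla2g10 (r = 0.97), Pipox (0.97), Arhgap30 (0.97) and Prr23a3 (0.96). With Spearman's rho, Kirrel2 and Pla2g10 stayed among the first 5. Other annotated genes overlap Nphs1 itself, and the strand setting of the counting was not stated, so reads of opposite strands in shared exons cannot be told apart. The antisense gene Nphs1os shares 597 exon bases with it and peaked at 6.82 CPM in shLacZ at d2, and its own difference over d6 to d12 was -1.83 (SE 0.58, adjusted p = 0.0427). The pseudogene Rps12-ps4 shares 183 exon bases and reached 91.7 CPM at d0 in shDIS3L2. Over the 14 libraries the correlation of Nphs1 was 0.80 with Nphs1os and 0.54 with Rps12-ps4. The part of reads from these genes in the level of Nphs1 was not tested.

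**Figure D3:**
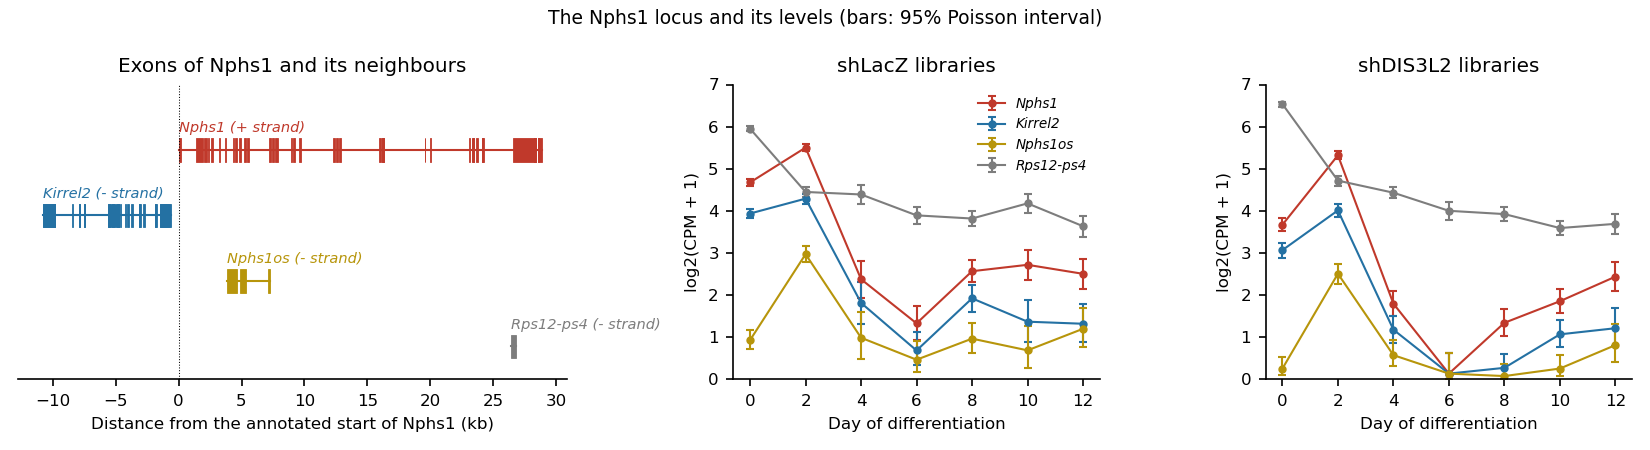
Left, exons of Nphs1, Kirrel2, Nphs1os and Rps12-ps4 by distance in kb from the annotated start of Nphs1. Right, log2(CPM + 1) of the same genes against day in each line, 1 library per point with 95% Poisson intervals. Nphs1 and Kirrel2 trace the same course, with peaks of 44.3 and 18.5 CPM at d2 in shLacZ and minima at d6, while Rps12-ps4 declines from d0.

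Of the other genes of the slit diaphragm, 14 of 15 could be tested over d6 to d12. In shDIS3L2 6 were higher and 3 lower, beside 19.6% and 18.7% of all genes. Their median was -0.01 on the log2 scale against 0.02 for all genes. Kirrel3, another nephrin relative, was the only one of 14 compared that was called at d12 (background 8.17% higher and 1.42% lower). It stood at 3.93 against 0.397 CPM (9.91-fold), and its difference over d6 to d12 was 2.11 (SE 0.52, adjusted p = 0.0193). Fat1, a giant protocadherin of the slit, stood at 363 against 492 CPM at d12 and was lower by the test (-0.38, SE 0.09, adjusted p = 0.0176). The junction scaffold Tjp1 stood at 165 against 224 CPM at d12 (adjusted p = 0.155). Among Nphs1, Kirrel2 and Kirrel3, only the positive difference of Kirrel3 passed the edgeR test over d6 to d12. Those of Nphs1 and Kirrel2 were negative (adjusted p = 0.0554 and 0.103).

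Podxl, the sialomucin of the podocyte surface, was by far the most abundant of the 5 genes. It lies on the minus strand at chr6:31519488-31563981 (ENSMUSG00000025608). In shLacZ its level was 14.8 CPM at d0, 128 at d2 and 339 at d4, and then 860, 1127, 1048 and 928 on d6, d8, d10 and d12. In shDIS3L2 it was 10.6 CPM at d0, 112 at d2 and 166 at d4, and then 859, 637, 426 and 417 on d6, d8, d10 and d12. At d8 in shLacZ Podxl exceeded 99.8% of protein-coding genes, and at d12 in shDIS3L2 99.1%.

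Podxl rose 8.65-fold in shLacZ (interval 7.92 to 9.46) and 10.6-fold in shDIS3L2 (interval 9.37 to 12.0) from d0 to d2, in a step in which 26.6% and 33.5% of genes rose at least 3-fold. The lines then separated, met at d6 and separated again. From d6 to d12 the ratio of d12 to d6 was 1.08 in shLacZ (interval 1.05 to 1.11) and 0.485 in shDIS3L2 (interval 0.468 to 0.502), which is short of 3-fold in either line.

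Podxl had the lower CPM in shDIS3L2 on 7 of 7 days, with intervals below 1 on 6. With DESeq2 size factors the log2 ratio was -0.09 instead of -0.48 at d0 and turned to 0.01 at d6. The ratio was 0.716 at d0, 0.879 at d2, and 0.490 at d4 (interval 0.465 to 0.516). It was 0.999 at d6 (interval 0.971 to 1.03), 0.565 at d8, 0.406 at d10 (interval 0.394 to 0.418) and 0.449 at d12 (interval 0.433 to 0.465). No day reached 3-fold, and the libraries of d6 could not be told apart at 9117 and 11448 reads. The edgeR difference over d6 to d12 was -0.83 (SE 0.20, adjusted p = 0.0175), and over all 7 days it was -0.71 (SE 0.18, adjusted p = 0.0445). Without d8, d10 or d12 the adjusted p over the remaining late days was 0.0792, 0.0862 or 0.0582, so the call needed each of these days.

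The 2 other members of the CD34 family, to which podocalyxin belongs, had differences of the opposite sign. Podxl2 stood at 26.6 CPM in shDIS3L2 against 3.37 in shLacZ at d12 (7.89-fold) and was higher over d6 to d12 by 2.10 (SE 0.30, adjusted p = 0.00246). Cd34, a marker of vascular and stromal progenitors, stood at 16.9 against 5.55 CPM at d12 (3.03-fold) and was higher by 1.20 (SE 0.17, adjusted p = 0.00236). Their levels nevertheless stayed far below that of Podxl.

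The proteins that tie podocalyxin to actin are the adaptors Slc9a3r1 and Slc9a3r2 and the linkers ezrin, radixin and moesin. Ezrin (Ezr) was lower with Podxl, at 164 against 283 CPM at d12 and -0.89 over d6 to d12 (SE 0.06, adjusted p = 0.00037). Radixin (Rdx) was lower at 281 against 457 CPM and -0.58 (SE 0.09, adjusted p = 0.00355). Of the 7 genes of this list, 3 were higher and 3 lower over d6 to d12, beside 19.6% and 18.7% of all genes, with a median of 0.05. The lower ones were Ezr, Rdx and Slc9a3r1, and the higher ones Podxl2, Cd34 and moesin (Msn).

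Visceral endoderm is the yolk sac epithelium that many EBs form and that expresses the apolipoproteins. Its markers were lower in shDIS3L2 over d6 to d12, and Podxl was lower at d8, d10 and d12. The summed level over 6 markers ranged from 1098 to 5581 CPM in shLacZ and from 231 to 1622 in shDIS3L2 over d6 to d12. On each of those days 6 of 6 were lower in shDIS3L2. At d6 the sum was at 0.210 of shLacZ, whereas Podxl stood at 0.999. Within shDIS3L2 the sum rose from 231 CPM at d6 to 1622 at d10, while Podxl fell from 859 to 426 CPM. Endothelial markers summed to between 103 and 245 CPM in shLacZ and between 208 and 437 in shDIS3L2. The ratio of these sums was above 1 at d6, d8 and d10 and 0.940 at d12. Of the 8 endothelial genes, 8, 4, 5 and 4 were higher in shDIS3L2 on d6, d8, d10 and d12. Kdr alone made up 262 of 437 CPM at d8 and 182 of 254 CPM at d10 in shDIS3L2. The part of either cell type in the level of Podxl was not tested. The genes most like Podxl over the 14 libraries were Ndfip2 (r = 0.99), Uvrag (0.99), Cobll1 (0.99), Tor1aip2 (0.99) and Snx30 (0.98), of which only Uvrag was shared with the first 5 by Spearman's rho.

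Synpo, which encodes an actin-binding protein of podocyte foot processes and dendritic spines, was barely detected in ESCs and was higher in shDIS3L2 on each day from d6. It lies on the minus strand of chromosome 18 (ENSMUSG00000043079). In shLacZ its level was 0.401 CPM at d0, 0.303 at d2 and 4.46 at d4, and then 3.01, 11.1, 15.0 and 11.8 on d6, d8, d10 and d12. In shDIS3L2 it was 0.264 CPM at d0, 0.374 at d2 and 1.69 at d4, and then 9.52, 28.3, 42.6 and 36.1 on d6, d8, d10 and d12. The first increase fell between d2 and d4 in both lines, and the highest library of each line was that of d10.

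Synpo rose 14.7-fold from d2 to d4 in shLacZ (interval 6.63 to 36.9) and 4.52-fold in shDIS3L2 (interval 2.06 to 11.3), a step in which 6.79% and 7.31% of genes rose at least 3-fold. It then rose 5.63-fold from d4 to d6 in shDIS3L2 (interval 3.80 to 8.52, background 8.39%), while the ratio of the same step in shLacZ was 0.674 (interval 0.413 to 1.11). The ratio of d12 to d0 was 29.4 in shLacZ (interval 17.4 to 53.1) and 136 in shDIS3L2 (interval 65.6 to 341). These are ratios of CPM. The TMM factors of the libraries were 0.711 (shLacZ) and 0.623 (shDIS3L2) at d0 and 1.07 and 1.15 at d12. TMM scaling would thus lower both ratios, that of shDIS3L2 more.

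The line difference of Synpo changed sign with time. The ratio of shDIS3L2 to shLacZ was 0.659 at d0 (interval 0.229 to 1.69), 1.23 at d2 (interval 0.403 to 3.77) and 0.379 at d4 (interval 0.228 to 0.633). It was 3.17 at d6 (interval 2.18 to 4.69), 2.56 at d8 (interval 2.17 to 3.04), 2.84 at d10 (interval 2.35 to 3.45) and 3.05 at d12 (interval 2.48 to 3.78). With TMM scaling the d12 ratio was 1.51 on the log2 scale, short of 3-fold.

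The edgeR difference over d6 to d12 was 1.51 (SE 0.11, adjusted p = 0.00036), the smallest SE among the 4 genes tested. It was 0.86 over all 7 days (SE 0.36, adjusted p = 0.161). The change of the line difference between the first 3 sampling days (d0 to d4) and the last 4 (d6 to d12) was tested directly as an interaction of line and stage. For Synpo it was 2.19 (SE 0.39, adjusted p = 0.0101), in a test that called 4.85% of genes upwards and 5.24% downwards, and Synpo was the only one of the 5 genes called. Without d4 the change was 1.48 with an adjusted p of 0.0547, so that the call needed the libraries of d4. For Nphs1, Podxl, Tcf21 and Foxd1 the change of the line difference was -0.69, -0.42, 1.94 and -0.23 (adjusted p = 0.372, 0.425, 0.390 and 0.918).

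Of 12 other genes of the podocyte cytoskeleton, 4 were higher and 2 lower over d6 to d12, beside 19.6% and 18.7% of all genes. Their median was 0.03. Synpo2, a synaptopodin relative of muscle, stood at 24.5 against 4.76 CPM at d12 (5.15-fold) and was higher by 1.72 (SE 0.20, adjusted p = 0.00128). Clic5, a chloride channel relative bound to ezrin in podocytes, was lower, at 8.62 against 26.6 CPM at d12 and by -1.76 (SE 0.21, adjusted p = 0.0015). Ptpro, a receptor phosphatase of foot processes, had 1.78 against 0.298 CPM at d12 and did not pass the test over d6 to d12 (adjusted p = 0.214). The abundant actin regulators differed little, with Actn4 at 407 against 471 CPM (-0.20, SE 0.06, adjusted p = 0.0322) and Arhgdia at 440 against 519 CPM (adjusted p = 0.119).

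The genes most like Synpo over the 14 libraries were Mapre3 (r = 0.98), Col3a1 (0.98), Hspa12b (0.98), Tnc (0.98) and Prkca (0.98), and none of these was among the first 5 by Spearman's rho. Col3a1 and Tnc encode matrix proteins of mesenchyme. Smooth muscle markers summed to between 122 and 194 CPM in shLacZ and between 525 and 2172 in shDIS3L2 over d6 to d12. On each of those days 5 of 5 genes were higher in shDIS3L2. Neuron markers, summed over 6 genes, were higher in shDIS3L2 at d6 and d8 (ratios 5.17 and 1.90) and lower at d10 and d12 (0.739 and 0.640), and Tubb3 alone made up 93.5 of the 99.4 CPM at d6. The part of these cell types in the level of Synpo was not tested.

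Tcf21, the helix-loop-helix factor of podocytes and mesenchyme, appeared late and reached its highest level in the shDIS3L2 library of d12. Tcf21 (ENSMUSG00000045680) lies on the minus strand at chr10:22817281-22820174. Its counts in shLacZ were 0 reads at d0, 9 at d2 and 2 at d4, and then 10, 22, 14 and 24 on d6, d8, d10 and d12, or up to 2.38 CPM. In shDIS3L2 they were 0 reads at d0, 8 at d2 and 0 at d4, and then 3, 54, 157 and 153 on d6, d8, d10 and d12, or 2.75, 7.44 and 14.3 CPM on the last 3 days. With 0 reads at d0, the upper bound of the Poisson interval was 0.0925 CPM in shLacZ and 0.139 CPM in shDIS3L2.

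The ratio of d12 to d6 for Tcf21 was 3.17 in shLacZ (interval 1.46 to 7.42). In shDIS3L2 the counts were 3 and 153 reads, a ratio of 50.7 (interval 17.0 to 248). The step from d6 to d8 in shDIS3L2 met the criterion (ratio 9.72, interval 3.15 to 48.6, background 6.55%). Against d0, the d12 CPM was at least 31.6-fold higher in shLacZ and at least 126-fold higher in shDIS3L2, with the floor of 3 counts per library in place of 0. As for Synpo, TMM scaling would lower both of these bounds, that of shDIS3L2 more.

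Between the lines, the ratio of Tcf21 was 0.376 at d6 (interval 0.0665 to 1.46), 2.11 at d8 (interval 1.26 to 3.64), 4.39 at d10 (interval 2.54 to 8.21) and 6.02 at d12 (interval 3.90 to 9.68). At d0 and d4 the counts were at or below the floor in both lines, and at d2 the 8 and 9 reads gave 1.10 (interval 0.368 to 3.20). Tcf21 was thus higher in shDIS3L2 on 3 of the 4 late days. The edgeR difference over d6 to d12 was 1.56 (SE 0.49, adjusted p = 0.0429). With DESeq2 it was 1.33 with an adjusted p of 0.0549, and without d8, d10 or d12 the adjusted p was 0.111, 0.205 or 0.165. Over all 7 days it was 1.04 (SE 0.58, adjusted p = 0.282).

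The start of Tcf21 lies inside Gm10824, an RNA gene of the plus strand (chr10:22815749-22823330) whose exons share 0 bases with those of Tcf21. Gm10824 accompanied Tcf21 (r = 0.94, rho = 0.886 over the 14 libraries), with 45, 78 and 90 reads at d8, d10 and d12 in shDIS3L2 against 12, 4 and 3 in shLacZ. Its edgeR difference over d6 to d12 was 2.51 (SE 0.58, adjusted p = 0.0149), in the direction of that of Tcf21. The bases from 250 to 51 before the RefSeq start of Tcf21 (GRCm38.p6, chr10:22820194-22820393, minus strand) are shown because they lie within Gm10824.

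Tcf21: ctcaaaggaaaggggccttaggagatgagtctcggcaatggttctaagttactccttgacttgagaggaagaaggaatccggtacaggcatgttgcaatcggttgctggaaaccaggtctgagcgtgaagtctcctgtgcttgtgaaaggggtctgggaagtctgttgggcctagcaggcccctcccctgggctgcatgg

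No capitals appear, since neither GNGGGNGNG nor CANNTG was matched in it. The window held 54.5% G and C and 4 CG dinucleotides.

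Transcription factors known from podocytes were mostly higher together with Tcf21. Of 7 such genes, 5 were higher and 1 was lower over d6 to d12, where 19.6% and 18.7% of all genes were, with a median of 1.34 on the log2 scale against 0.02 for all genes. Nephron progenitor markers, 10 genes among them Six2 and Pax2, summed to 0.397, 0.365, 0.384 and 0.675 of the shLacZ level on d6, d8, d10 and d12, with 8, 7, 6 and 5 genes lower, and their part in these levels was not tested. Wt1 stood at 11.4 CPM in shDIS3L2 against 0.893 in shLacZ at d12 (12.8-fold, interval 6.52 to 28.7), with a late difference of 2.10 (SE 0.45, adjusted p = 0.0112). The cell cycle inhibitor Cdkn1c, an imprinted gene on in podocytes and mesenchyme, stood at 118 against 12.5 CPM (9.47-fold) and was higher by 2.87 (SE 0.19, adjusted p = 0.000339). The lower gene was Lmx1b. Tcf21 and Wt1 are both known from epicardium.

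The genes most like Tcf21 were Hcls1 (r = 0.98), Mylk (0.98), Milr1 (0.98), Sardh (0.97) and Slitrk6 (0.97), and none was among the first 5 by Spearman's rho. Among the 5 genes themselves, the closest pair was Synpo and Tcf21 (r = 0.85 over 14 libraries), followed by Podxl and Synpo (0.73), whereas Nphs1 correlated negatively with Podxl (-0.64) and Synpo (-0.65). These correlations share the time course and the libraries and are given as descriptions.

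The summed level of mesenchyme markers was higher in shDIS3L2 on each day from d6, as was Synpo. Tcf21 was higher from d8 on and stood at 0.376 of the shLacZ level at d6. Over 6 mesenchyme genes, among them Col1a1, Col3a1 and Twist1, the summed level at d12 was 1136 CPM in shLacZ but 12167 in shDIS3L2. The ratio was 10.7, after ratios of 2.40 at d6, 4.67 at d8 and 7.47 at d10. Of the 6 genes, 4, 5, 5 and 6 were higher on d6, d8, d10 and d12. Col3a1 made up 7939 of the 12167 CPM. Epicardial and mesothelial markers had ratios of 0.924, 1.48, 1.43 and 1.09 on the same days, with 3, 6, 5 and 5 of 7 genes higher. Krt19 took the largest part of these sums, 68.6 of 88.7 CPM in shLacZ and 62.2 of 127 CPM in shDIS3L2 at d10. The part of mesenchymal or epicardial cells in the levels of Tcf21 and Synpo was not tested.

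**Figure D4:**
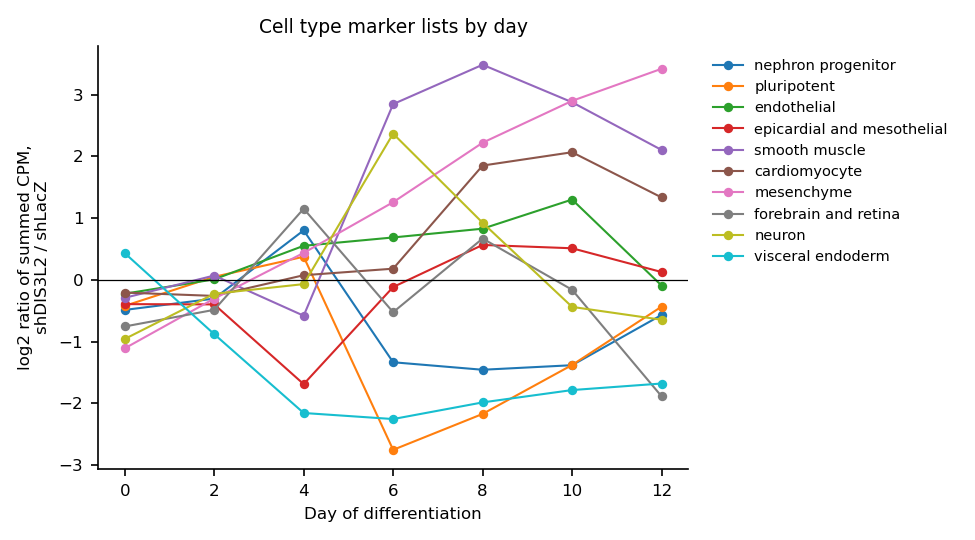
Log2 ratio of the summed CPM of each cell type marker list, shDIS3L2 over shLacZ, against day of differentiation, from 1 library per line and day. Mesenchyme and smooth muscle markers are above 0 on the 4 days from d6, with ratios at d12 of 10.7 and 4.30, and visceral endoderm markers are below 0 from d2 on.

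Foxd1, the factor of stromal progenitors, was at the edge of detection throughout. Foxd1 (ENSMUSG00000078302) is a gene of the plus strand at chr13:98354242-98356703. Its counts in shLacZ were 15 reads at d0, 5 at d2 and 1 at d4, and then 8, 3, 6 and 15 on d6, d8, d10 and d12. In shDIS3L2 they were 3 reads at d0, 2 at d2 and 6 at d4, and then 6, 6, 3 and 5 on d6, d8, d10 and d12. The CPM reached 1 in a single library, that of shLacZ d12 (1.49 CPM), and the highest level in shDIS3L2 was 0.565 CPM at d6.

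Foxd1 met the criterion between the lines at d12, with a ratio of 0.315 (interval 0.0895 to 0.911), and a ratio as low at d0 and d10 (0.301 and 0.196) was not called because its CPM stayed under 1. The ratio was above 1 on 2 of 7 days (d4 and d8) and below 1 on 5. The gene was removed by the filter on low counts in the fit over d6 to d12. In the fit over all 7 days the difference was -0.82 (SE 0.43, adjusted p = 0.255). No difference of Foxd1 beyond its error was detectable in a test at this depth.

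The genes most like Foxd1 were Slc7a1 (r = 0.90), Fezf1 (0.88), Tnfrsf21 (0.85), Six6 (0.84) and Gm21083 (0.84), and Slc7a1, Fezf1 and Tnfrsf21 were also among the first 5 by Spearman's rho. Fezf1 and Six6 are transcription factors of the embryonic forebrain and eye. They reached at most 1.29 and 1.49 CPM, and Six6 is itself among the markers given next. The 6 markers of forebrain and retina, where Foxd1 is also known, at d12 summed to 10.7 CPM in shLacZ but 2.90 in shDIS3L2. In the 3 other late shLacZ libraries they summed to between 1.35 and 3.75 CPM. The ratio of the sums, shDIS3L2 to shLacZ, was 2.23 at d4 and 0.697, 1.59, 0.896 and 0.271 on d6, d8, d10 and d12. On those 4 late days 1, 1, 2 and 1 of the genes were higher and 4, 3, 4 and 5 lower. The part of such cells in the counts of Foxd1 was not tested.

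Although Foxd1 was near the floor, other genes known from the renal stroma were present and mostly higher in shDIS3L2. Of 19 genes, 18 could be tested over d6 to d12, of which 13 were higher and 2 lower, beside 19.6% and 18.7% of all genes. Their median was 1.5 against 0.02 for all genes. On single days, 5 of 17 compared met the criterion upwards at d6, 8 of 17 at d8, 12 of 17 at d10 and 9 of 18 at d12, against 2.73%, 5.5%, 8.62% and 8.17% of all genes compared. At d6, 2 of the 17 met it downwards, against 4.27% of all genes. These genes are used in many kinds of mesenchyme, and Pdgfra is both in this list and among the mesenchyme markers given above. The sum of those markers was also higher in shDIS3L2 on each day from d6. The part of mesenchymal cells in the levels of the stroma genes was not tested.

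The proteoglycan decorin (Dcn) stood at 324 CPM in shDIS3L2 against 10.8 in shLacZ at d12 (29.9-fold), with a late difference of 4.15 (SE 0.28, adjusted p = 0.000339). Aldh1a2, the enzyme by which stroma makes retinoic acid, stood at 33.8 against 2.38 CPM (14.2-fold), and the retinoic acid receptor Rarb at 33.6 against 3.87 CPM (8.69-fold), with late differences of 2.23 (SE 0.67, adjusted p = 0.0361) and 3.35 (SE 0.53, adjusted p = 0.00363). Smoc2, a matrix protein, was higher 6.96-fold at d12. Pdgfra, a receptor of stromal cells, was abundant in both lines at 628 and 480 CPM and did not pass the test (0.17, SE 0.11, adjusted p = 0.231). The genes that were lower were Ntn1 and Penk, and renin (Ren1) was too low to be tested.

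Of 10 genes tested of the glomerular basement membrane and its receptors, 4 were higher and 3 lower, beside 19.6% and 18.7% of all genes, with a median of 0.12. Col4a5 was 4.10-fold higher at d12 (198 against 48.4 CPM), and the laminin chain Lamc1 was lower, at 3141 against 5774 CPM at d12 and by -0.83 over d6 to d12 (SE 0.08, adjusted p = 0.000712). The integrin chain Itgb1 was higher by 0.47 (SE 0.10, adjusted p = 0.0114).

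**Figure D5:**
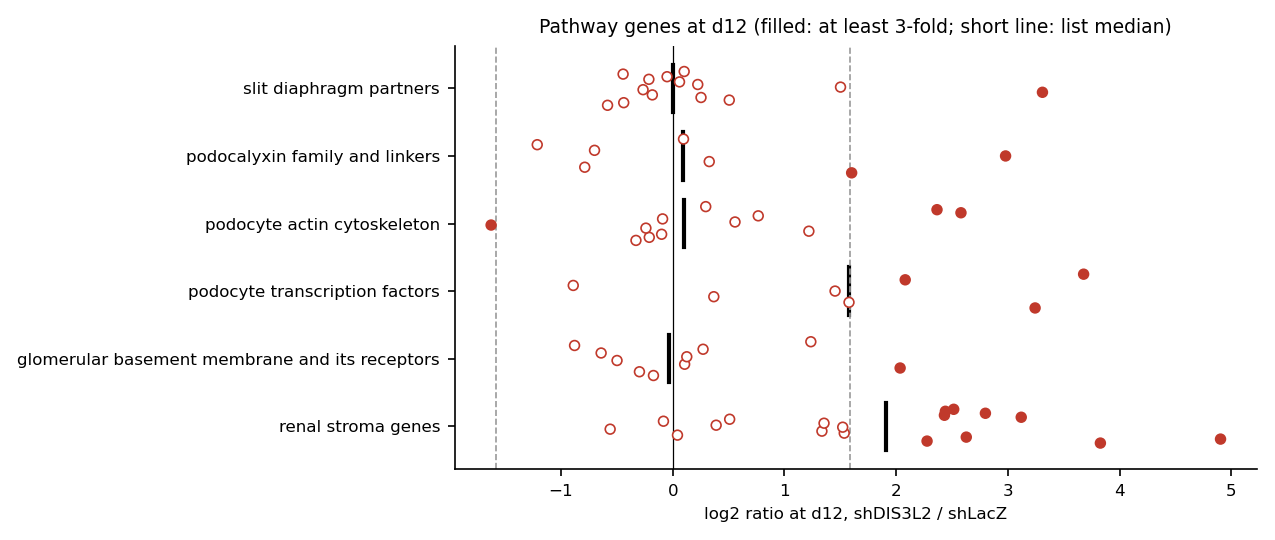
Log2 ratio of shDIS3L2 to shLacZ at d12 for the genes of 6 pathway lists that reached 1 CPM in either line, 1 point per gene, filled where the ratio is at least 3-fold, with the list median as a short line and dashed lines at 3-fold. Of the renal stroma genes, 9 of 18 lie beyond 3-fold, while the slit diaphragm list has 1 such gene of 14. Among all genes compared, 8.17% were higher and 1.42% lower by this criterion.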

How the data were processed

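PolyA RNA of 14 cultures was sequenced. The authors used Subread for alignment to GRCm38 (Ensembl 88) and featureCounts for gene counts (strand setting not stated), and deposited whole read counts of 50686 genes. They also deposited CPM of 16181 protein-coding genes, made with edgeR, which equal the count plus 0.25 scaled to the total of those genes. The column prefix shm5 was read as shDIS3L2, the only other line besides shLacZ in the labels. Here CPM was recomputed from the counts over all genes, and the deposited CPM served as an alternative.

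edgeR 4.0.16 (TMM, filterByExpr, quasi-likelihood, adjusted p under 0.05) in R 4.3.3 gave the line difference over d6 to d12, over all 7 days, and its change between stages, with day as a block. DESeq2 1.42.0 was the alternative, beside other scalings, no filter and leaving out days. SE denotes the standard error of a log2 difference. The tests were tried on simulated data. Named genes are the 5 members, Dis3l2, Wt1, per list up to 4 genes with the largest ratio at d12 among those called and the 2 highest not called, and the 5 most correlated genes of each member. Kirrel2's course, the overlapping genes and the other list genes named without statistics were added after their values were seen. Some genes that this rule names are not reported here. The members, lists and tests were chosen with earlier results of these data known. RefSeq windows (GRCm38.p6) gave the sequences.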

Additional observations from a re-analysis of the deposited data

Results flagged for a closer look

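The line difference changed between stages for 3 of the genes named, by an edgeR test of the interaction of line and stage (d0, d2 and d4 against d6 to d12, Benjamini-Hochberg adjusted). For Synpo the change was 2.19 on the log2 scale (adjusted p = 0.0101), from ratios of 0.379 to 1.23 in the 3 earlier pairs of libraries to 2.56 to 3.17 in the 4 later ones. For Wt1 it was 2.45 (adjusted p = 0.0413), with ratios of 1.07 and 0.418 at d2 and d4 and of 2.76, 1.79, 5.82 and 12.8 on d6, d8, d10 and d12. The call for Wt1 was lost without d0, d2, d4, d10 or d12 (adjusted p = 0.0636, 0.0764, 0.131, 0.128 and 0.0635). For Dis3l2, the target of the hairpin, it was 1.61 (adjusted p = 0.0112), from ratios of 0.137 to 0.321 to ratios of 0.552 to 0.971. No group holds more than 1 library, so no library was compared with others of its group.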

How the results depend on the processing

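Each day's 2 libraries were left out in turn, and alternatives were run for every comparison. For Nphs1, DESeq2 (-1.36, adjusted p = 0.0248) and no filter on low counts (-1.18, adjusted p = 0.0100) brought the d6 to d12 difference past the threshold, and likewise over all 7 days (-0.90 for both, adjusted p = 0.00971 and 0.0250). Without the day block the late differences lost their calls, at -0.76 for Podxl (adjusted p = 0.0536), 1.52 for Synpo (0.0774) and 2.01 for Tcf21 (0.138), as did that of Podxl over 7 days (-0.81, 1.0). DESeq2 took Tcf21 to 1.33 (0.0549). Leaving out days gave ranges over d6 to d12 of -1.65 (without d12) to -0.97 (without d6) for Nphs1, past the threshold at both ends but not without d8 (-1.02, adjusted p = 0.219) or d10 (-1.28, 0.160), -1.11 to -0.68 for Podxl and 1.09 to 1.95 for Tcf21. Over 7 days the ranges were -0.83 to -0.60 for Podxl, called neither without d4 nor without any later day, and 0.69 to 1.19 for Synpo, called without d4 alone. For the change between stages they were 1.48 to 2.54 for Synpo and -0.77 to 0.32 for Foxd1, whose sign turned without d4, d10 (0.13) or d12 (0.14). The number of genes called over d6 to d12, 6574, was 3334 without the day block and 3336 (without d10) to 6677 (without d6) when days were left out. Over 7 days, 1147 calls became 2511 with DESeq2, 2093 with no filter, 0 without the day block (627 at an unadjusted p under 0.05) and 8 (without d10) to 2189 (without d0). For the change between stages, 2023 calls became 3279 with no filter and 524 (without d2) to 2151 (without d6). Of the 5 genes, a 2-fold criterion called 1 at d0 (Nphs1), 2 at d4, 3 at d8 and 4 at d10, and no minimum CPM added Foxd1 for 1 at d0 and 2 at d10. Other counts per day stayed within 1.5 times. With TMM, DESeq2 size factors or the deposited CPM, 92 line ratios of single days stayed within their counting intervals and 7 did not, and with the first of these scalings and DESeq2 size factors 212 day ratios within a line stayed and 56 did not. The lines were paired by day in the main tests, and the libraries carry no replicate numbers. The causes of these changes were not tested. Depth limits Foxd1, Synpo at d0 and d2, Tcf21 at d0 to d6 and in shLacZ at d10, and Nphs1 in shDIS3L2 at d6. Counts there were 16 or fewer.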
